A study of Mus musculus with 5 samples.

Results

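Brown adipose tissue was set against gastrocnemius muscle, microRNA by microRNA, on the arrays of these tissues. They are 2 of the 5 arrays of a tissue survey in C57BL/6 mice aged 2 to 3 months, in which 1 array was hybridised for each tissue. The labels name no treatment, allele or sex and leave the number of animals behind each array open. Total RNA was taken from frozen tissue, labelled with a Cy3 dye and hybridised to miRCURY arrays, whose probes contain locked nucleic acids that bind short RNAs tightly. All 598 mouse microRNA probes of the design were compared. There is no replicate of either tissue, so no difference below has a replicate check and no test was run. The 4 spots printed for each probe give only the noise between spots.

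Brown fat burns lipid and glucose to make heat, through mitochondria that the uncoupling protein UCP1 lets run without making ATP. Gastrocnemius is a limb muscle, mostly of fast fibres. Brown adipocytes and skeletal muscle fibres share precursors that once expressed the muscle gene Myf5, and both are rich in mitochondria. A microRNA is a short RNA cut from a hairpin. It guides the silencing complex to messenger RNAs chiefly through its seed, the stretch just after the first base at its 5′ end. Muscle has a set of microRNAs of its own, made from genes that sit in pairs or inside myosin genes, whereas the microRNAs named for brown adipocytes are mostly ones that mouse experiments found to promote or to be needed for the brown programme.

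Sequences are shown for the microRNAs that differed most and for those whose seeds or arms bear on the comparison. Of the 55 microRNAs at least 2-fold different, 47 were matched to a mature sequence in RefSeq (build GRCm38.p6). All sequences and positions here are taken from it. The others, among them miR-1 and miR-133a, were not matched here and are given by name only. Capitals mark the seed, bases 2 to 8 from the 5′ end. The first set holds microRNAs with the highest ratios of brown fat over gastrocnemius.
miR-203: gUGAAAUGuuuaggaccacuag
miR-708: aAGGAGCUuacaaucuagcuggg
miR-455: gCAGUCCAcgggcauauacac
miR-32: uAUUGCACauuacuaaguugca
miR-182: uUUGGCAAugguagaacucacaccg
miR-96: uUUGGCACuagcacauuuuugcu
miR-193b: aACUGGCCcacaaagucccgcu
miR-148a: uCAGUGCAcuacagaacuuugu
miR-144: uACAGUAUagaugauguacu

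miR-203 lies at chr12:112130927-112130948 on the plus strand, in no protein-coding gene of the annotation. miR-708 lies at chr7:96249450-96249472 on the plus strand, within Tenm4. miR-455 lies at chr4:63256904-63256924 on the plus strand, within the collagen gene Col27a1. miR-32 lies at chr4:56895272-56895293 on the minus strand, within Tmem245. In each of these 3 the microRNA and the gene share a strand. The annotation used here gives gene spans, so intron and exon are not stated. miR-182 at chr6:30165962-30165986 and miR-96 at chr6:30169506-30169528 are neighbours on the minus strand. miR-193b lies at chr16:13449570-13449591 on the plus strand, close to a copy of miR-365.

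The second set holds microRNAs with the lowest ratios among those with a sequence, so miR-133a*, miR-486 and miR-1 are left out. Of the 9 shown, 5 come from the imprinted Dlk1-Dio3 domain, which held 19 of the 186 microRNAs detected on at least 1 array. The 9 were picked by their ratios, and 11 of the 19 were detected in gastrocnemius alone, so this count is only a description. Of the 5, miR-434-3p, miR-434-5p and miR-299* were under the floor in brown fat.
miR-206: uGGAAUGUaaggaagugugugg
miR-434-3p: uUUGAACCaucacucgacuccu
miR-196a: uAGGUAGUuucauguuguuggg
miR-128: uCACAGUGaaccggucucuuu
miR-434-5p: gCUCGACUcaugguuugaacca
miR-299*: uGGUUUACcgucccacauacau
miR-136: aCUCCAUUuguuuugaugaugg
miR-379: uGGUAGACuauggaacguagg
miR-208b: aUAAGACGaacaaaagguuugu

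miR-206 lies at chr1:20679055-20679076 on the plus strand, near miR-133b. miR-208b lies at chr14:54975710-54975731 on the minus strand, within Myh7, the slow myosin heavy chain gene. miR-128 has copies within R3hdm1 at chr1:128202404-128202424 and within Arpp21 at chr9:112118644-112118664. miR-196a has copies at chr11:96265187-96265208 and chr15:102973365-102973386, among the Hoxb and Hoxc genes.

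The third set holds the groups in which microRNAs at least 2-fold different had one seed: miR-103 with miR-107, miR-196a (above) with miR-196b, and miR-181a with miR-181b. Only the 47 with a sequence used here were compared by seed. These 3 groups held 6 of them, and in each group both members differed in one direction. Probes within a group may share signal. miR-196a, miR-196b and miR-181b were detected in gastrocnemius alone, so that the floor fixed their direction. miR-1 and miR-133a, without a sequence here, could not be compared by seed with miR-206 and miR-133b.
miR-103: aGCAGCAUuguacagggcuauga
miR-107: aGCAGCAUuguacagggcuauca
miR-196b: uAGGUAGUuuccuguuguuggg
miR-181a: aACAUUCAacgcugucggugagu
miR-181b: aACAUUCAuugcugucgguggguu

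The last set holds hairpins of which 1 arm differed at least 2-fold and the other did not. The star marks, in the array's naming, the arm usually found at the lower level.
miR-22: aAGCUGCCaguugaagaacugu
miR-22*: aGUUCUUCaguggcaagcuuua
miR-30a: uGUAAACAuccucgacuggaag
miR-30a*: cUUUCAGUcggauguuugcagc

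Of the 598 microRNAs, 160 were detected in brown fat and 165 in gastrocnemius, detection being a background-subtracted intensity of 50 array units or more. Both arrays detected 139, brown fat alone 21 and gastrocnemius alone 26. The 186 detected on at least 1 array were considered further, and the other 412 were under the floor on both. Levels are normalized intensities, which the authors obtained by dividing by a median of the array, 445.75 units in brown fat and 407.75 in gastrocnemius. A level is therefore a multiple of that median. Where 1 array was under the floor, its value was raised to the lowest detected level of that array, 0.116 in brown fat and 0.124 in gastrocnemius, and the fold is written as at least that large. In 4 cases, among them miR-455* and miR-124, the raised value left no fold.

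In brown fat 22 microRNAs were at least 2-fold higher, which is 11.8% of the 186, and 33 at least 2-fold lower, which is 17.7%. Another 127 were within 2-fold. The higher ones were led by miR-203, miR-708, miR-455 and miR-32, and the lower ones by the muscle microRNAs miR-133a* and miR-206, the imprinted miR-434-3p and the Hox cluster miR-196a. Of the higher ones 6 are bounds, and of the lower ones 15. Among the calls measured on both arrays, the 4 spots of brown fat and the 4 of gastrocnemius did not overlap in 16 of 16 higher and 18 of 18 lower microRNAs. They were also apart in 48 of 105 microRNAs within 2-fold, so spots that do not overlap are no mark of a 2-fold difference. Spot noise, as the SD of log2 values within a probe, was typically 0.16 (median) and under 0.39 in 95% of cases.

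Of the 139 microRNAs detected on both arrays, 78 differed by less than 1.5-fold, and their levels had a Pearson correlation of 0.85 and a Spearman correlation of 0.82 on the log2 scale, or a Pearson correlation of 0.89 without the muscle list. These are descriptions across microRNAs, which share arrays and probe families. The median log2 ratio of brown fat over gastrocnemius was 0.14 over these 139 and 0.03 over all microRNAs with a fold, bounds included. A microRNA detected in one tissue alone had to differ or sit at the floor, so counts and medians of lists below are over members detected on both arrays. Of those 139 microRNAs, 11.5% were at least 2-fold higher in brown fat and 12.9% at least 2-fold lower, and list medians are to be read against 0.14. The choice of scaling shifted the first by -0.40 to 0.17 over 6 other scalings.

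**Figure D1:**
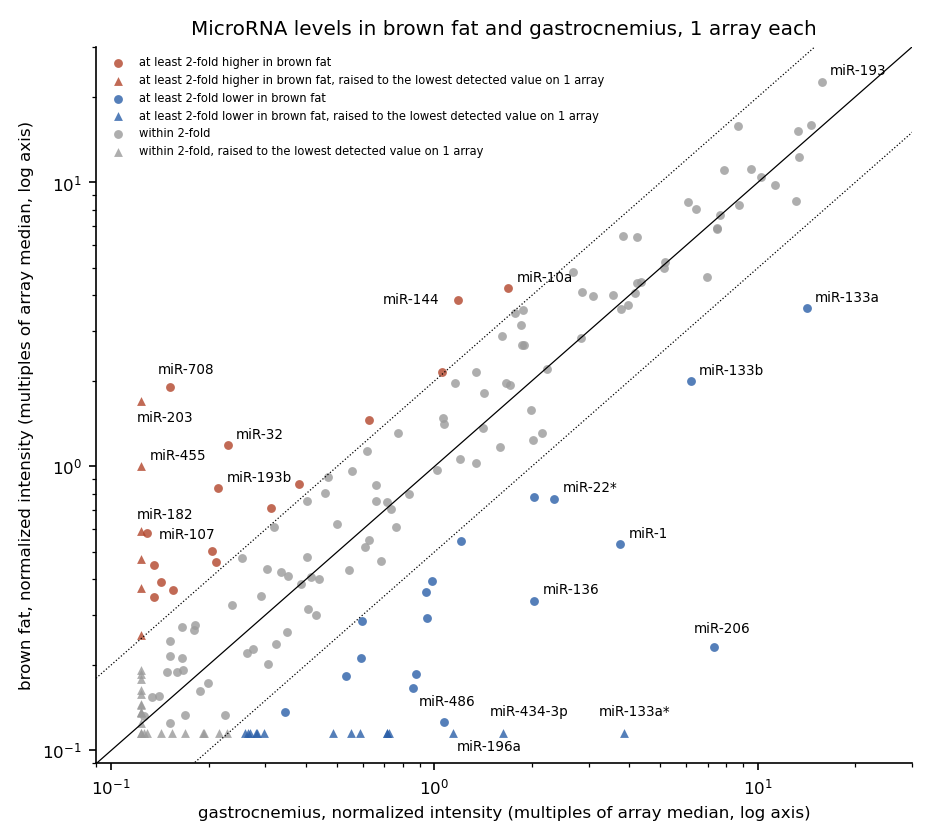
Normalized intensity of each microRNA with a fold in brown fat (vertical, log axis) and gastrocnemius (horizontal, log axis), 1 array each. The solid line marks equal levels and the dotted lines 2-fold, and triangles stand at the lowest detected level of the array that was under the floor. Most points lie between the dotted lines, with miR-133a*, miR-206 and miR-1 far to the lower right and miR-708, miR-203 and miR-32 to the upper left.

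The 5 brightest probes with a mouse microRNA name in brown fat were miR-193, miR-378, let-7b, let-7c and miR-30a, and in gastrocnemius they were miR-193, miR-378, miR-133a, miR-30a and let-7c. A probe with no microRNA name had 5978.5 units in brown fat, within the range of the 5 there. In gastrocnemius it had 15096 units, above every probe with a mouse microRNA name, and it was 2.76-fold lower in brown fat. Probe brightness also depends on the probe, so this is no order of abundance. miR-193 stood at 22.6 in brown fat and 15.8 in gastrocnemius, a log2 ratio of 0.52 (spot SE 0.07). miR-378, made from an intron of the mitochondrial coactivator gene Ppargc1b, had 7126.5 units in brown fat and 5958 in gastrocnemius, a log2 ratio of 0.13 (spot SE 0.10). let-7c was at 15.2 in brown fat and 13.3 in gastrocnemius, and let-7b at 15.8 and 8.70 in the same order, the let-7 family being general regulators of differentiation and insulin signalling. miR-30a stood at 12.3 in brown fat and 13.4 in gastrocnemius. These 5 were within 2-fold between the tissues, and miR-133a, the other microRNA named here, was not.

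Muscle microRNAs were lower in brown fat. The 5 members of the muscle list detected on both arrays were all at least 2-fold lower, against 12.9% of the 139, and their median log2 ratio was -2.82, against 0.14. Another 2, miR-133a* and miR-208b, were detected in gastrocnemius alone. miR-206, which acts in muscle regeneration and at the neuromuscular synapse, had 103 units (normalized 0.231) in brown fat, against 2989.5 units (7.33) in gastrocnemius. Its level was 31.7-fold lower in brown fat (spot SE 0.14 on the log2 scale), and the spots of the 2 arrays were far apart, at 0.211 to 0.247 in brown fat and 5.09 to 7.39 in gastrocnemius. miR-1, which promotes muscle differentiation, stood at 0.532 in brown fat and 3.75 in gastrocnemius, 7.05-fold lower in brown fat (spot SE 0.04).

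The miR-133 microRNAs, which hold back muscle differentiation and in mouse cells repress Prdm16, a switch for the brown fate, remained well above the floor in brown fat. miR-133a had 1605 units (3.60) in brown fat and 5785 units (14.2) in gastrocnemius, 3.94-fold lower in brown fat (spot SE 0.04). miR-133b stood at 2.00 in brown fat and 6.21 in gastrocnemius, 3.11-fold lower. The opposite arm of the miR-133a hairpin went further. miR-133a* had 23 units in brown fat, under the floor, and 1570 units (3.85) in gastrocnemius, at least 33.3-fold lower in brown fat and the lowest ratio among the mouse microRNAs. The muscle microRNAs were thus not lower in one proportion. miR-206 and miR-133b are neighbours on chromosome 1, yet the first was 31.7-fold and the second 3.11-fold lower. Probes of miR-1 and miR-206, and of miR-133a and miR-133b, can bind each other's targets, so the split within each pair is uncertain.

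The remaining muscle list members were near the floor in brown fat. miR-486, which is abundant in muscle and red cells, had 56 units (0.126) in brown fat and 436.5 units (1.07) in gastrocnemius, 8.52-fold lower in brown fat (spot SE 0.13). miR-208b, from the slow myosin gene Myh7, had 32 units in brown fat and 239.5 units (0.587) in gastrocnemius, at least 5.08-fold lower. Its relatives miR-208a, of heart myosin, and miR-499, of the slow myosin Myh7b, were under the floor on both arrays, at 3.5 and 6.5 units in brown fat and at 3.5 and 32 units in gastrocnemius. The 9 probes of the list summed to 2957 units in brown fat and 15117.5 in gastrocnemius. In whole tissue, fewer cells of a type and less RNA per cell cannot be told apart.

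Set beside the other arrays of the survey, again without a test, the muscle microRNAs of brown fat lay between gastrocnemius and white fat. miR-133a had 1605 units in brown fat, 110.5 in inguinal and 72 in epididymal white fat, and 5785 in gastrocnemius. miR-1 had 237 units in brown fat, 21.5 and 7.5 in these white depots, and 1529 in gastrocnemius. miR-206 had 103 units in brown fat, 2 and 2.5 in the white depots, and 2989.5 in gastrocnemius. Whether muscle fibres were present in the brown fat sample was not tested.

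**Figure D2:**
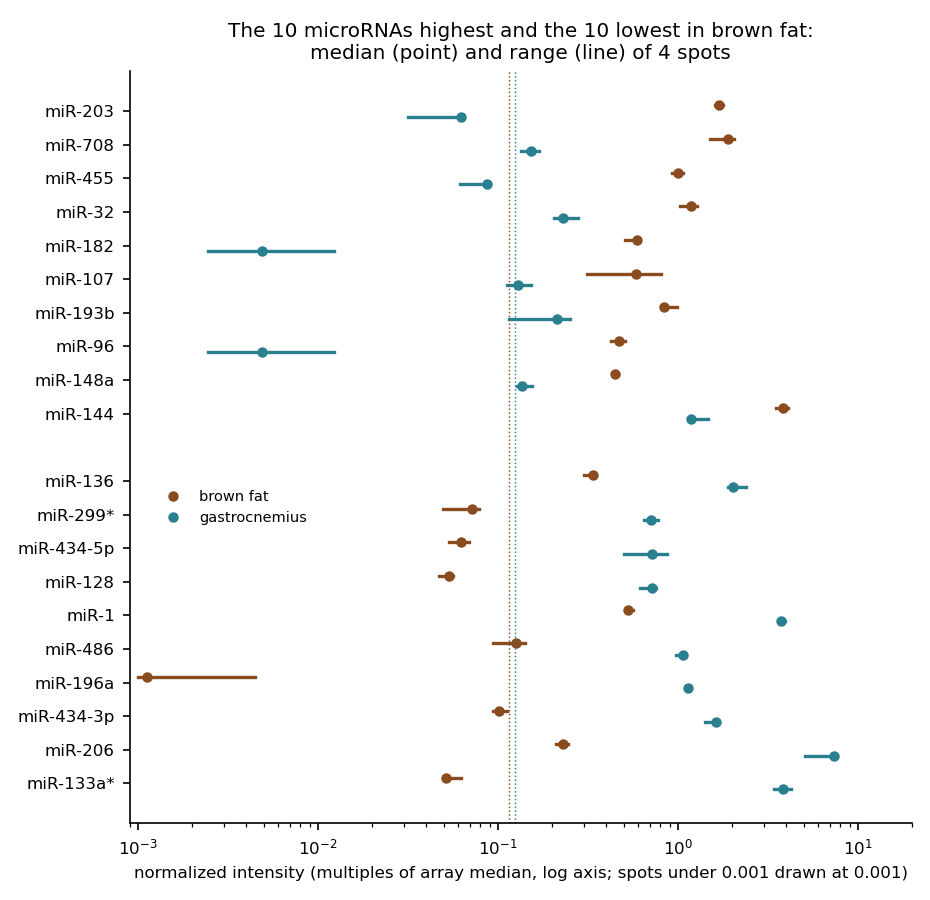
Normalized intensity (log axis) of the 10 microRNAs with the highest and the 10 with the lowest ratio of brown fat over gastrocnemius. Points are the deposited medians of 4 spots, lines the range of the spots, and dotted lines the lowest detected level of each array. In every one of the 20 the ranges of the tissues are apart, and miR-182, miR-96 and miR-196a lie far under the floor on the array where they are lower.

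No microRNA of the brown adipocyte list was 2-fold lower in brown fat. Of the 10 members detected on both arrays, 2 were at least 2-fold higher, miR-32 and miR-193b, against 11.5% of the 139, too few to set the list apart. Their median log2 ratio was 0.42, against 0.14. Another 5, miR-203, miR-182, miR-455, miR-455* and miR-129-3p, were detected in brown fat alone, so that the floor fixed their direction. This list and the others were drawn up with earlier results of these data known, so their counts are descriptions. miR-203 had 757 units (1.70) in brown fat and 25.5 in gastrocnemius, under the floor, at least 13.7-fold higher in brown fat. In mouse preadipocytes miR-203 and miR-182 are reported to be needed for brown differentiation. miR-182 had 264 units (0.592) in brown fat and 2 units in gastrocnemius, at least 4.78-fold higher, and its neighbour miR-96 had 210 units (0.471) in brown fat and 2 units in gastrocnemius, at least 3.80-fold higher. The third member of that cluster, miR-183, was under the floor on both arrays, at 39 units in brown fat and 2 in gastrocnemius.

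miR-455, which in mice promotes brown adipocyte differentiation, had 446.5 units (1.00) in brown fat and 35.5 in gastrocnemius, at least 8.09-fold higher in brown fat. Its opposite arm miR-455* had 53 units in brown fat and 1.5 in gastrocnemius, too close to the floor for a fold. miR-32, reported as enriched in mouse brown fat, had 529.5 units (1.19) in brown fat and 93.5 units (0.229) in gastrocnemius, 5.18-fold higher (spot SE 0.12). miR-129-3p had 114 units in brown fat and 12.5 in gastrocnemius, at least 2.06-fold higher and just inside the limit. On the inguinal and epididymal white fat arrays, in that order, miR-32 had 384.5 and 267 units and miR-203 had 178.5 and 287. There miR-455 had 108 and 50 units, miR-193b 52 and 49.5, miR-182 9 and 2, and miR-129-3p 9.5 and 9.5.

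miR-193b and miR-365 form a cluster that mouse cell work links to brown differentiation. miR-193b had 373 units (0.837) in brown fat and 87.5 units (0.215) in gastrocnemius, higher by 1.96 on the log2 scale (spot SE 0.27). Its cluster partner miR-365 had 1589.5 units in brown fat and 767.5 in gastrocnemius, 1.89-fold higher and outside the limit, although a second copy of miR-365 on chromosome 11 also feeds that probe. miR-378* came as close, with 408.5 units in brown fat and 191 in gastrocnemius, 1.96-fold higher, while the main arm miR-378 was 1.09-fold higher. The list's miR-26a, miR-26b, miR-30b and miR-30c, which promote adipocyte formation in cell culture, had log2 ratios of -0.00, 0.23, 0.32 and -0.04. Each was within 2-fold between these tissues, though the spots of miR-30b did not overlap. miR-193* and miR-129-5p were under the floor on both arrays.

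Among microRNAs known mainly from white adipocytes, 4 of the 8 detected on both arrays were at least 2-fold higher in brown fat, against 11.5% of the 139, and 1 was lower, against 12.9%. Their median log2 ratio was 0.51, against 0.14. The 4 include miR-103 and miR-107, whose probes may share signal, and miR-196a and miR-221 were detected in gastrocnemius alone. miR-708, within Tenm4, had 850 units (1.91) in brown fat and 62 units (0.152) in gastrocnemius, 12.5-fold higher in brown fat (spot SE 0.12). It was the highest ratio of a mouse microRNA detected on both arrays. miR-148a, which promotes adipocyte differentiation and regulates cholesterol uptake, had 200 units (0.449) in brown fat and 55.5 units (0.136) in gastrocnemius, 3.30-fold higher (spot SE 0.06). miR-107 had 260.5 units (0.584) in brown fat and 52.5 units (0.129) in gastrocnemius, 4.54-fold higher, with the widest spot SE of those named on this list, 0.31. miR-103 had 961 units (2.16) in brown fat and 430 units (1.05) in gastrocnemius, 2.04-fold higher and the smallest ratio inside the limit.

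The median log2 ratio of miR-103 and miR-107 was 1.61. Both are known to lower insulin sensitivity in mouse liver and fat. They lie within genes of pantothenate kinases, which begin coenzyme A synthesis: miR-107 at chr19:34820700-34820722 within Pank1, and miR-103 at chr2:131288103-131288125 within Pank2 and at chr11:35782447-35782469 within Pank3. Their sequences above are nearly alike, so each probe may hold signal of the other. The lower members of the list were miR-196a and miR-335-5p. miR-335-5p, within the imprinted gene Mest and known to go up in enlarging mouse adipocytes, had 347 units (0.778) in brown fat and 828.5 units (2.03) in gastrocnemius, 2.61-fold lower in brown fat (spot SE 0.08). miR-143, miR-10b and miR-222 were within 2-fold, miR-221 had a bound under 2-fold, and miR-33 was under the floor on both arrays.

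The Hox cluster microRNAs, whose levels follow the position of a tissue along the body axis are here miR-10a, miR-10b, miR-196a and miR-196b, the last 2 detected in gastrocnemius alone. miR-196a had 0.5 units in brown fat and 465.5 units (1.14) in gastrocnemius, at least 9.88-fold lower in brown fat, and miR-196b had 1 unit in brown fat and 105.5 units in gastrocnemius, at least 2.24-fold lower. Both were at the level of empty spots in brown fat, where these reached 1.5 units. In mice miR-196a targets Hoxc8 and promotes the browning of white fat. miR-10a, among the Hoxb genes at chr11:96317186-96317208, had 1898 units (4.26) in brown fat and 688 units (1.69) in gastrocnemius, 2.52-fold higher in brown fat (spot SE 0.10). miR-10b, among the Hoxd genes, was level, at 2.20 in brown fat and 2.23 in gastrocnemius. On the other arrays miR-196a had 177.5 units in inguinal fat, 3.5 in epididymal fat and 329 in soleus, so the brown fat value was nearest that of epididymal fat.

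**Figure D3:**
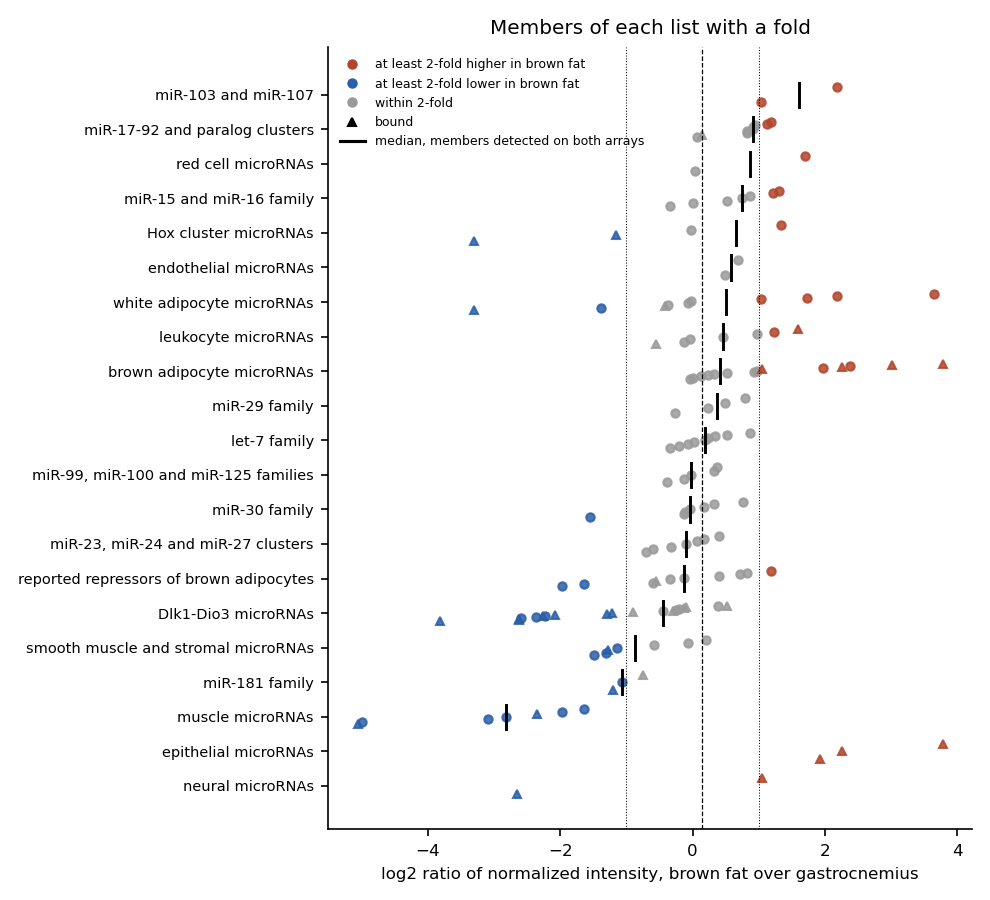
Log2 ratio of normalized intensity, brown fat over gastrocnemius, of every member with a fold in each list, lists ordered by the median of members detected on both arrays (black bars, none where no member was). Triangles are bounds, whose direction the floor fixes, dotted lines mark 2-fold and the dashed line the median over microRNAs detected on both arrays, 0.14. The muscle list lies wholly below -1, while the brown adipocyte list runs from -0.04 to 3.78.

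Of the microRNAs at least 2-fold lower in brown fat, 10 come from the Dlk1-Dio3 domain. The domain on chromosome 12 is imprinted, and its microRNAs are expressed from the maternal allele, at high level in the embryo, the placenta and the brain, with some in muscle. The array held 71 of the listed probes. Of the 7 detected on both arrays, 3 were at least 2-fold lower, against 12.9% of the 139, and none higher, against 11.5%. Their median log2 ratio was -0.45, against 0.14. Another 11 were detected in gastrocnemius alone and miR-668 in brown fat alone, so that the floor fixed their direction. The other 52 were under the floor on both arrays and give no ratio. The 3 were miR-136, miR-379 and miR-329, and the other 7 of the 10 were detected in gastrocnemius alone.

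miR-434-3p had 45.5 units in brown fat and 662 units (1.62) in gastrocnemius, at least 14.1-fold lower in brown fat. The other arm of that hairpin, miR-434-5p, had 28 units in brown fat and 291.5 in gastrocnemius, at least 6.19-fold lower. miR-136 had 150 units (0.337) in brown fat and 829 units (2.03) in gastrocnemius, 6.04-fold lower in brown fat (spot SE 0.08). These hairpins and that of miR-127 lie within the span of Rtl1, a paternally expressed gene that some of these microRNAs silence. miR-127 had 26.5 units in brown fat and 224.5 in gastrocnemius, at least 4.77-fold lower. They form 1 stretch, from miR-127 at chr12:109592888-109592909 to miR-136 at chr12:109595331-109595352.

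A second stretch began 145 kb from the first hairpin of the domain. miR-379 had 74 units (0.166) in brown fat and 350.5 units (0.860) in gastrocnemius, 5.18-fold lower (spot SE 0.20). miR-329 had 83 units in brown fat and 356.5 in gastrocnemius, 4.70-fold lower. miR-299* had 32 units in brown fat and 290 in gastrocnemius, at least 6.16-fold lower, and miR-411 had 30 and 198 units in the same order, at least 4.20-fold lower. miR-377 and miR-541, near the end of the domain, were at least 2.45-fold and at least 2.32-fold lower.

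Other members were within 2-fold or had a bound under 2-fold. miR-487b had 384.5 units in brown fat and 269 in gastrocnemius, 1.31-fold higher in brown fat, and the spots of the tissues did not overlap. miR-433*, miR-494 and miR-667 had log2 ratios of -0.45, -0.25 and -0.20, all detected on both arrays. miR-668 had 79.5 units in brown fat and 40.5 in gastrocnemius. The authors' deposited list, which applies no floor to a value under 50 on 1 array, also had miR-539, miR-341, miR-337-3p and miR-381 among those higher in gastrocnemius, by ratios of gastrocnemius over brown fat of 36.8, 4.28, 5.36 and 2.22. Here their bounds were under 2-fold, so the folds themselves may be larger.

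**Figure D4:**
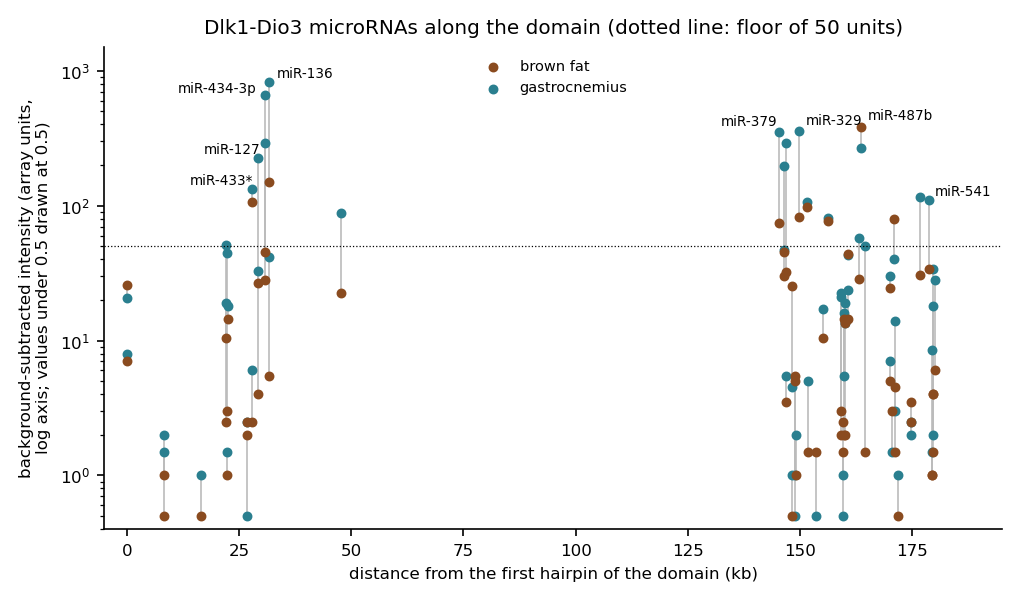
Background-subtracted intensity (array units, log axis) of the 67 Dlk1-Dio3 probes that could be placed, by distance in kb from the first hairpin, with a line joining brown fat and gastrocnemius for each. The dotted line is the floor of 50 units. The 10 microRNAs at least 2-fold lower in brown fat lie between 29.2 and 178.7 kb, in 2 main stretches, and miR-487b has brown fat above gastrocnemius.

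Opposite arms of 1 hairpin did not always go together. Both arms were above the floor on at least 1 array for 17 hairpins. miR-22, abundant in muscle, was level between the tissues, at 2344 units (5.26) in brown fat and 2110 units (5.17) in gastrocnemius, whereas miR-22* had 343.5 units (0.771) in brown fat and 955 units (2.34) in gastrocnemius, 3.04-fold lower (spot SE 0.07). The arms thus differed 3.09-fold in their ratios. miR-30a was level, at 12.3 in brown fat and 13.4 in gastrocnemius, and miR-30a* had 81.5 units (0.183) in brown fat and 217.5 units (0.533) in gastrocnemius, 2.92-fold lower (spot SE 0.16). For miR-133a the arms differed at least 8.46-fold in the same sense. The hairpin of miR-503 was split otherwise, with miR-503 2.46-fold higher in brown fat and miR-503* at a log2 ratio of -0.31. In the other hairpins with 2 measured ratios the arms lay within 2-fold of each other, apart from miR-434, whose arms were both lower and are both bounds.

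Neighbouring hairpins were compared as well. miR-144 and miR-451 are processed from 1 red cell transcript, with sites at chr11:78073047-78073066 and chr11:78073186-78073207. miR-144 had 1717.5 units (3.85) in brown fat and 482.5 units (1.18) in gastrocnemius, 3.26-fold higher in brown fat (spot SE 0.10). miR-451 had 1988 units (4.46) in brown fat and 1770 units (4.34) in gastrocnemius, a log2 ratio of 0.04 with a spot SE of 0.51. Its spots were wide, at 2.74 to 5.18 in brown fat and 1.27 to 5.03 in gastrocnemius, and overlapped. Whether this pair split is therefore uncertain. miR-199a and miR-214, which come from a transcript opposite Dnm3 on chromosome 1, were both lower in brown fat. A second copy of miR-199a on chromosome 9 also feeds its probes.

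The miR-17-92 cluster and its paralogs promote cell growth and division. Of the 8 members detected on both arrays 2 were at least 2-fold higher in brown fat, against 11.5% of the 139, and none lower, against 12.9%, counts too small to set the list apart. Their median log2 ratio was 0.91, against 0.14. miR-93, within the replication gene Mcm7 at chr5:138165574-138165596, had 386 units (0.866) in brown fat and 155.5 units (0.381) in gastrocnemius, 2.27-fold higher (spot SE 0.10). miR-19b had 205 units in brown fat and 86 in gastrocnemius, 2.18-fold higher. miR-17, miR-20a, miR-19a, miR-106a and miR-106b came close, with log2 ratios of 0.82, 0.94, 0.91, 0.91 and 0.83. Under 6 other scalings the median over 9 members, 1 bound in brown fat's favour included, was 0.51 to 1.08.

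In the miR-15 and miR-16 family, which restrains the cell cycle, 2 of 7 members, all detected on both arrays, were at least 2-fold higher, against 11.5% of the 139, and none lower, against 12.9%. These counts are too small to set the family apart. The median log2 ratio was 0.75, against 0.14. miR-322 had 648 units (1.45) in brown fat and 256 units (0.628) in gastrocnemius, 2.32-fold higher (spot SE 0.10). miR-503, its neighbour on the X chromosome, had 225 units in brown fat and 83.5 in gastrocnemius, 2.46-fold higher (spot SE 0.15). miR-15a, miR-15b and miR-16 had log2 ratios of 0.75, 0.87 and 0.52, while miR-195 was level at 0.00 and miR-497 stood at -0.34.

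Of the 9 reported repressors of the brown programme detected on both arrays, miR-133a and miR-133b were at least 2-fold lower in brown fat, against 12.9% of the 139, and miR-93 higher, against 11.5%. These counts are near those shares. The median log2 ratio was -0.12, against 0.14. miR-34a, which holds back browning in obese mice, had 121.5 units in brown fat and 67.5 in gastrocnemius, a log2 ratio of 0.72 (spot SE 0.09). miR-27a and miR-27b, which block adipocyte differentiation through Pparg, stood at 0.40 and -0.60, with spots that overlapped in both cases. miR-155 was under the floor in brown fat, at 40 units, and at 69 units in gastrocnemius. miR-106b stood at 0.83, let-7i at -0.34 and miR-125b-5p at -0.12, and miR-328 was under the floor on both arrays.

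Large families shared by most cells had few members past 2-fold, against 11.5% higher and 12.9% lower of the 139. Probes within the let-7, miR-30 and miR-181 families, like those of miR-196a and miR-196b, can bind each other's targets, so values of single members are uncertain. None of the 9 let-7 family members differed 2-fold. Their median log2 ratio was 0.19, which turned negative under 1 of 6 other scalings. The miR-29 family, repressors of collagen genes, had 4 members above the floor, none of them past 2-fold. Their median of 0.36 became negative under 1 scaling. The miR-30 family had 7 above the floor, of which miR-30a* alone was past the limit, and the median of -0.04 became positive under 3. None of the 7 members of the miR-23, miR-24 and miR-27 clusters and none of the 5 of the miR-99, miR-100 and miR-125 families differed 2-fold. Their medians, -0.10 and -0.03, also turned sign under 3 scalings.

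The miR-181 family, known from lymphocytes and muscle, had 1 member detected on both arrays, miR-181a, and 2 detected in gastrocnemius alone, so no share is given beside the 12.9% of the 139 that were lower. miR-181a had 127 units (0.285) in brown fat and 242.5 units (0.595) in gastrocnemius, 2.09-fold lower (spot SE 0.09), the smallest ratio inside the limit on that side. miR-181b had 29 units in brown fat and 108 in gastrocnemius, at least 2.29-fold lower. miR-181a-2* had 4 units in brown fat and 79 in gastrocnemius, with a bound under 2-fold, so its fold may be larger. Each of miR-181a and miR-181b is made from 2 loci, on chromosomes 1 and 2.

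Markers of other cell types give a view of what else the samples held, and their part in the results above was not tested. Of the leukocyte list, 5 of 8 were detected on both arrays and 1 of these, miR-142-5p, was at least 2-fold higher in brown fat, near the 11.5% of the 139. miR-150, of mature lymphocytes, was detected in brown fat alone, with 166.5 units there and 32 in gastrocnemius, at least 3.02-fold higher. miR-142-5p had 163 units in brown fat and 63.5 in gastrocnemius, 2.35-fold higher (spot SE 0.38), and miR-142-3p had 1542.5 units in brown fat and 721.5 in gastrocnemius, 1.96-fold higher. The myeloid miR-223 was level, at 609.5 units in brown fat and 575 in gastrocnemius. The 5 had a median log2 ratio of 0.45, against 0.14, and the list summed to 2879.5 units in brown fat and 1761.5 in gastrocnemius. Among red cell microRNAs the sum was 3705.5 units in brown fat and 2252.5 in gastrocnemius, and for both arms of miR-126, of endothelium, it was 5874 and 3751 in the same order. The medians of these pairs were 0.87 and 0.59, and both arms of miR-126 were within 2-fold.

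Of the 6 stromal microRNAs detected on both arrays, 3 were at least 2-fold lower in brown fat, against 12.9% of the 139, and none higher, against 11.5%. These 3 are of the miR-199 and miR-214 group and share transcripts or sequence. miR-214 had 94.5 units (0.212) in brown fat and 242 units (0.594) in gastrocnemius, 2.80-fold lower (spot SE 0.18). miR-199b* was 2.48-fold and the probe shared by miR-199a-3p and miR-199b 2.21-fold lower, and miR-199a-5p, detected in gastrocnemius alone, at least 2.42-fold lower. miR-143 and miR-145, which mark smooth muscle, were level, with log2 ratios of -0.07 and 0.20, and miR-21 stood at -0.59. The 6 had a median log2 ratio of -0.86, against 0.14, and the list summed to 6700.5 units in brown fat and 7934.5 in gastrocnemius.

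Of the 10 epithelial probes, miR-203, miR-182 and miR-96 were above the floor, in brown fat alone, so that the floor fixed their direction, and none was detected on both arrays. The markers that define epithelium more narrowly were close to 0 on both arrays. miR-200a, miR-200b, miR-200c, miR-141, miR-429 and miR-205 had 0 to 4.5 units in brown fat and 0.5 to 4 units in gastrocnemius. The 10 probes summed to 1281.5 units in brown fat and 42.5 in gastrocnemius. Of the 10 neural probes none was detected on both arrays. miR-128, known in neurons and in muscle, had 24 units in brown fat and 295 units (0.723) in gastrocnemius, at least 6.26-fold lower. miR-124, the most neuron-specific, had 51.5 units in brown fat and 16.5 in gastrocnemius, and miR-9 had 46 and 4 units in the same order. The liver marker miR-122 had 2.5 units in brown fat and 5 in gastrocnemius.

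A few microRNAs at least 2-fold different belonged to none of the lists. Higher in brown fat were miR-423-5p by 2.75-fold, miR-652 by 2.55-fold and miR-691 by 2.29-fold. Lower in brown fat were miR-190 by 3.23-fold, miR-185 by 2.60-fold, miR-677 by at least 2.57-fold and miR-500 by 2.53-fold. They are named to complete the 55, after their values were seen.

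The authors deposited a list of their own for these tissues, with ratios of gastrocnemius over brown fat, the reverse of the direction used here. It held 67 mouse microRNAs, 27 higher in brown fat and 40 higher in gastrocnemius. All 55 microRNAs past 2-fold here were on it. The other 12 had a value under the floor on 1 array, which the deposited ratio uses as it is.

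How large a fold came out also depended on the scaling. Of the 22 higher microRNAs 10 stayed past 2-fold under all 6 other scalings, and of the 33 lower ones 24 did. The 10 were miR-203, miR-708, miR-455, miR-32, miR-182, miR-107, miR-193b, miR-96, miR-148a and miR-144. The fold was over 1.5 times smaller under at least 1 scaling for 20 of the 55, among them miR-203, which came to 6.65-fold, miR-708 to 6.61-fold and miR-133a* to 16.9-fold lower, each with a model-based background correction. With each array scaled to the 75th percentile of probes detected on both, 12 were higher and 41 lower, so that 22.6% of those called were higher, against 40% under the authors' scaling. With the 75th percentile of all mouse probes, 31 were higher and 30 lower, or 50.8%.

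**Figure D5:**
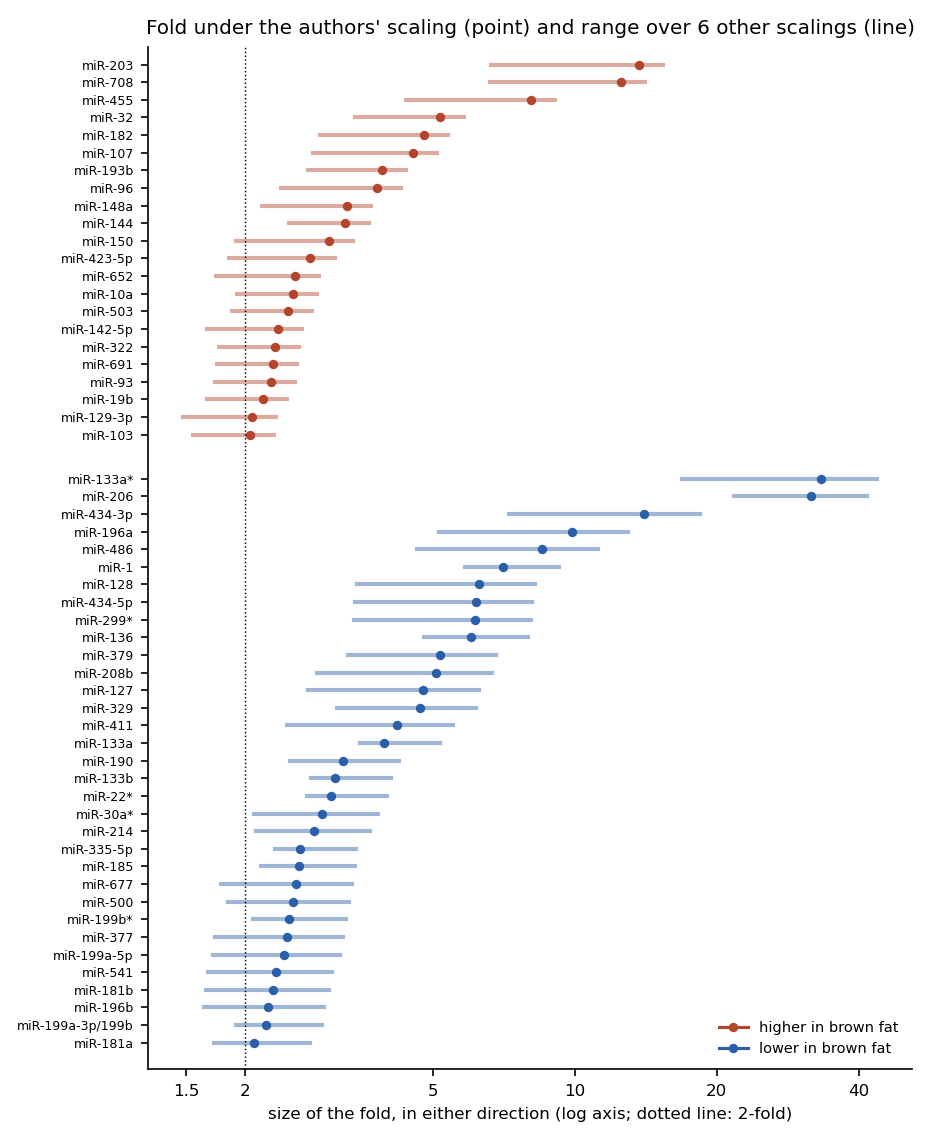
Size of the fold (log axis) of the 55 microRNAs at least 2-fold different, those higher in brown fat above and those lower below. Points are folds under the authors' scaling and lines span 6 other scalings, with 2-fold dotted. The lines of 10 higher and 24 lower microRNAs stay past 2-fold.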

How the data were processed

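Tissue microRNA was labelled with Cy3 and read on 1-colour arrays, 1 per tissue, and samples were grouped by their tissue label. Per the file headers, the authors deposited the foreground and background-subtracted intensity of 4 spots per probe and took the median of the spots. Per the file headers, the normalized value is a ratio of background-subtracted intensity to the array's median over microRNAs above 50 units in all samples. The deposited list of ratios of gastrocnemius over brown fat, past 2-fold, used these values, and the series' value table held the same ones. For the scanner and its image software, nothing is given in the sources used here.

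From these values the log2 ratio of brown fat over gastrocnemius was taken for each mouse microRNA with 50 units or more on at least 1 array. A value under 50 was raised to whichever was higher, itself or the array's lowest detected value. Limits were 2-fold. Spot standard errors combine the log2 spread of 4 spots on each array and leave out animals, extraction and labelling. With 1 array a side there was no test and no p-value. Arrays give no depth, and their number limits the precision.

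Named microRNAs were the 10 highest and 10 lowest ratios, the 5 brightest mouse microRNA probes of each array, every list member past 2-fold, and members or opposite arms needed to account for a list. The members and the 22 lists were chosen with earlier results of these data known. Some lists share members: miR-133a, miR-133b, miR-93 and miR-106b, miR-155, miR-27a, miR-27b and let-7i, miR-125b-5p, miR-182 and miR-203, miR-129-3p and miR-129-5p, miR-30b and miR-30c, miR-143, miR-10b, miR-196a, miR-103 and miR-107 are each on 2. Alternatives were 6 scalings (none, 75th percentiles, a median, spike-ins, and normexp with an offset of 50 followed by quantile normalization in limma 3.58.1 under R 4.3.3), other floors and fold limits, and the mean of spots. Calculations used pandas 2.3.3 and numpy 2.4.6 under Python 3.11.15, with figures from matplotlib 3.10.9. Calling was checked on simulated arrays that differed by set folds and spot noise alone, so scaling and labelling were not covered.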

Additional observations from a re-analysis of the deposited data

Results flagged for a closer look

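Viral probes, on arrays from mice for which no infection is named, gave signal above the floor. The highest had 197 units on the brown fat array and 130 units on the gastrocnemius array, on the same probe, and 2 viral probes on each array were at 50 units or more. Empty spots reached 1.5 units on both arrays, and negative controls reached 6 units in brown fat and 2 in gastrocnemius.

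Probes that carry no microRNA name in the deposited table were not used in the comparison. Under the same rule, 14 of them were at least 2-fold higher in brown fat and 13 at least 2-fold lower.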

How the results depend on the processing

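With 1 array of each tissue, leaving out a replicate was not possible, and no value here bears on the spread between animals. No paired analysis was possible because the tissues have 1 array apiece. Signal over background limited the bounds, which make up 21 of the 55 calls. Against 22 higher and 33 lower microRNAs, 12 were higher with the 75th percentile of probes detected on both arrays and 12 with normexp and quantile normalization. A floor of 100 units left 13 higher, a 1.5-fold limit gave 45 higher, a 3-fold limit 11 higher and 19 lower, and 18 were lower among probes detected on both arrays. Fewer probes qualify under the higher floor and limit by construction. For the scalings the cause was not tested. The median log2 ratio over microRNAs detected on both arrays, 0.14 under the authors' scaling, was 0.27 with no scaling, -0.25 with the 75th percentile of probes detected on both, 0.31 with that of all mouse probes and 0.0286 with spike-ins, so its sign turned under 1 scaling. The other settings kept the counts within 1.5 times, with 16 to 31 higher and 24 to 43 lower. The mean of the spots gave 21 higher and 35 lower, and the series' value table gave the same 55 calls.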

Other observations

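The array also carried probes to other small RNAs and to spiked-in controls. On the normalized scale SNORD2 stood at 1.11 in brown fat and 1.53 in gastrocnemius, SNORD3@ at 0.457 in brown fat and 0.234 in gastrocnemius, and U6 snRNA at 0.442 in brown fat and 0.426 in gastrocnemius. Of these, SNORD3@ came closest to the limit, at 1.95-fold higher in brown fat. The 7 spike-in controls detected on both arrays had a median log2 ratio of 0.24 on the scale of array units, with a range of -0.15 to 0.61, while the authors' scales differ between the arrays by 0.13 on that scale.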
